A study of Homo sapiens with 6 samples.

Results

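The genes described here are 39 genes of autophagy, its core machinery and its cargo receptors, given as a list of gene names with no threshold on a measured value, although earlier results of these data were known when the list was made. They were found by GENCODE 29 symbol among the 58735 genes of an expression table, and 38 of the 39 reached the level at which differences were tested. The table came from paired-end sequencing of total RNA from HOK-16B, an immortalized human cell line grown from keratinocytes of the mouth's epithelium. All 6 libraries came, per the series description, from inflammation-stimulated cells. Of these, 3 were pretreated with cannabidiol (CBD), a cannabinoid of Cannabis sativa, and 3 (labelled NC) with the vehicle excipient. The labels name neither the stimulus nor a dose or time, and no unstimulated cells were analysed here. The samples are of 1 line by the cell line tag, although the free-text description gives each of the 6 a different line number. Nothing in the labels says that the replicates were separate cultures, so a p-value here weighs a difference against variation among 6 libraries that may be only technical.

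Autophagy encloses part of the cytoplasm in a double membrane, the autophagosome, and delivers it to the lysosome. A kinase complex built around ULK1 starts the process, a lipid kinase complex with BECN1 marks the site, and WIPI, ATG2 and ATG9 proteins bring in lipid. A ubiquitin-like chain of enzymes then attaches proteins of the ATG8 family (LC3 and GABARAP) to the growing membrane, where receptors such as SQSTM1 (p62) hold the cargo. Much of this regulation acts on proteins after they are made, so transcript levels describe the supply of components and not the rate of the process. In keratinocytes autophagy is known for its part in differentiation and in the clearance of damaged organelles and microbes.

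Values are FPKM, fragments per kilobase of gene length and scaled to the library's total. The length is that of all annotated exons of a gene together, not of the transcript in use. Levels of different genes can therefore be compared only roughly. Between 19010494 and 22158614 fragments were counted in genes in the CBD libraries and between 18213784 and 21200871 in the vehicle libraries. Keratinocyte markers were high (12 of 12 had a mean FPKM of at least 1, with sums of 12691 to 13266 FPKM in CBD and 10407 to 12178 FPKM in vehicle libraries), and the part of that difference in the results was not tested. Lower means with CBD were found for KRT6A (1289 against 1352 FPKM in vehicle libraries), ITGA6 (92.5 against 108 FPKM) and CDH1 (47.9 against 49.4 FPKM). All others of the 12 had higher means. In bulk RNA, fewer cells of a type and less RNA per cell cannot be told apart. The highest sum of the 4 endothelial markers in a library was 0.125 FPKM, and the leukocyte marker CD3E was at 0 in all libraries. Of the leukocyte markers only CD14 reached a mean of 1 FPKM (2.54 FPKM in CBD and 2.49 FPKM in vehicle libraries), and of the melanocyte markers only PMEL (1.04 FPKM over all 6 libraries). Of the fibroblast markers only COL1A1 did, at 8.69 ± 0.0249 FPKM in CBD and 7.13 ± 0.416 FPKM in vehicle libraries with no overlap, and its part in the results was not tested. The libraries differed in the GC content of what was counted. The mean transcript GC content per fragment was 50.7% ± 0.0437 in CBD and 50.0% ± 0.386 in vehicle libraries (SD, n = 3 each). It ran from 50.69% to 50.77% in CBD and from 49.58% to 50.35% in vehicle libraries, without overlap, and its part in the results was not tested. Vehicle replicate 1 stood farthest from the rest, with a score of 25.1 on the first principal component compared with -12.7 to -10.3 for CBD replicates and with 9.36 and -0.74 for vehicle replicates 3 and 2.

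The comparison asked how CBD altered the supply of autophagy transcripts in stimulated keratinocytes. Differences were small and went both ways. The kinase gene ULK1 had the largest, with a mean of 13.1 FPKM in CBD against 9.12 FPKM in vehicle libraries, a 1.44-fold ratio of means. The protease gene ATG4D, the lipid transfer gene ATG2A and the ATG8-family gene GABARAPL1 also lay higher with CBD, while PIK3R4, a subunit of the lipid kinase complex, and the conjugation genes ATG3 and ATG5 lay lower. None of the 38 passed the test over all genes (limma on log2(FPKM + 1), Benjamini-Hochberg adjusted p from 0.0552 to 0.943).

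Across all 12517 genes tested, 0.256% passed as higher and 0.0959% as lower, so 0 of 38 is near what the background gives. An unadjusted limma p under 0.05 was found for 9 members as higher (23.7%, against 15.4% of all genes) and for 3 as lower (7.89%, against 16.0%). In 12 members all 3 CBD values lay above all 3 vehicle values (31.6%, against 18.7% of all genes), and in 6 all lay below (15.8%, against 21.9%). Differences are on the log2(FPKM + 1) scale, where those of low genes come out too small. The median over the members was -0.0087, against -0.013 over all genes. Above 0 lay 19 of the 38, against 47.4% of all genes. The members' shares were thus above those of all genes on the higher side and below them on the lower side, while the medians were close; no test was made of these shares.

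**Figure D1:**
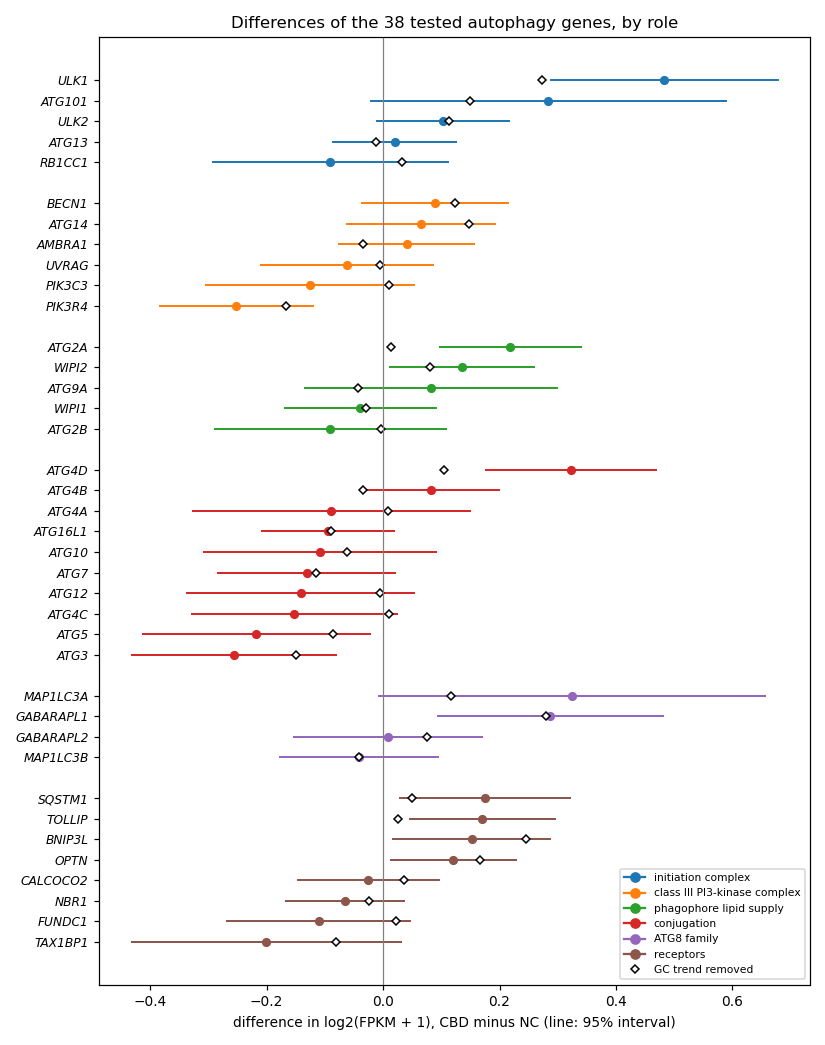
Difference in log2(FPKM + 1), CBD minus NC, for the 38 tested genes grouped by role, as filled points with 95% intervals; open diamonds give the difference after removal of a GC-content trend. Points run from -0.26 (ATG3) to 0.48 (ULK1), and several diamonds, such as that of ATG2A, lie nearer 0 than the point.

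Counts of members that pass depended on the method and on 1 library. With limma-voom on the fragments recovered from the FPKM values, 4 members were called higher (ULK1, ATG2A, ATG4D and GABARAPL1) and 2 lower (PIK3R4 and ATG3). That method called 7.26% of all genes higher and 6.69% lower. When the test was kept to genes with a mean of at least 5 FPKM, 3 of 30 members were called higher (ULK1, ATG2A and ATG4D) and 1 lower (PIK3R4), against 5.87% and 4.19% of all genes. Without vehicle replicate 2 limma called 7 higher and 3 lower, against 10.1% and 8.66% of all genes. Leaving out any of the other 5 libraries gave 0 calls among the members. Few genes passed in those fits at all: over all genes 0 to 59 were called higher and 0 to 22 lower.

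The initiation complex joins the kinase ULK1 or its paralogue ULK2 to ATG13, ATG101 and the scaffold RB1CC1 (FIP200). ULK1 had 12.9, 12.7 and 13.6 FPKM in CBD replicates 1 to 3, against 8.11, 10.3 and 8.96 FPKM in vehicle replicates 1 to 3. All 3 CBD values lay above all vehicle values, and the vehicle libraries were more spread. The log2 difference was 0.48 ± 0.08 (SE; 95% interval 0.29 to 0.68; limma adjusted p = 0.0552, range over alternatives 0.00922 to 0.209). Without vehicle replicate 1 it was 0.41. ULK2 had 5.62 ± 0.079 FPKM in CBD and 5.17 ± 0.152 FPKM in vehicle libraries (SD, n = 3 each), also without overlap, a log2 difference of 0.10 (limma adjusted p = 0.192). The ratio of ULK1 to ULK2 within a library was higher with CBD, at a mean log2 of 1.22 ± 0.0731 against 0.81 ± 0.207 in vehicle libraries (exact permutation p = 0.1, the smallest that 3 against 3 allows; 0.175 adjusted over 14 paralogue pairs).

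The transcripts of this pair differ in base composition, less so at the start of the coding sequence than over its whole length. The first 60 coding bases of the principal GENCODE 29 transcripts (GRCh38) are given 5′ to 3′ with G and C in capitals. ULK1 lies on chromosome 12 (131894651 to 131923167, plus strand) and ULK2 on chromosome 17 (19770829 to 19867936, minus strand).
ULK1: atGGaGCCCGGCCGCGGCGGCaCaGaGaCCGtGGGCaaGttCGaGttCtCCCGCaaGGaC
ULK2: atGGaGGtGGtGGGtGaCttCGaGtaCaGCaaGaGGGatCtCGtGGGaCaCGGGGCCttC
Of these 60 bases 41 are G or C in ULK1 and 36 in ULK2. Over the whole coding sequence the share is 66.0% in ULK1 and 49.5% in ULK2. With the GC trend removed from each library, the difference of ULK1 was 0.27 and that of ULK2 0.11.

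ATG13, which binds ULK1 to its partners, had 10.7 ± 0.237 FPKM in CBD and 10.6 ± 0.184 FPKM in vehicle libraries, with overlapping groups and a log2 difference of 0.02 (95% interval -0.09 to 0.13). ATG101, which stabilizes ATG13, had 5.65, 5.28 and 5.18 FPKM in CBD and 3.34, 5.31 and 4.22 FPKM in vehicle replicates 1 to 3. Vehicle replicate 2 reached the CBD level, so the groups overlapped (log2 difference 0.28; limma adjusted p = 0.181). The difference of ATG101 was 0.15 without vehicle replicate 1 and also 0.15 with the GC trend removed, and the gene was called higher without vehicle replicate 2 (limma adjusted p = 0.0350). The scaffold gene RB1CC1 had 10.4 ± 0.672 FPKM in CBD and 11.2 ± 1.28 FPKM in vehicle libraries (limma adjusted p = 0.488). In the initiation complex 4 of 5 genes lay above 0, against 47.4% of all genes, with a median difference of 0.10.

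**Figure D2:**
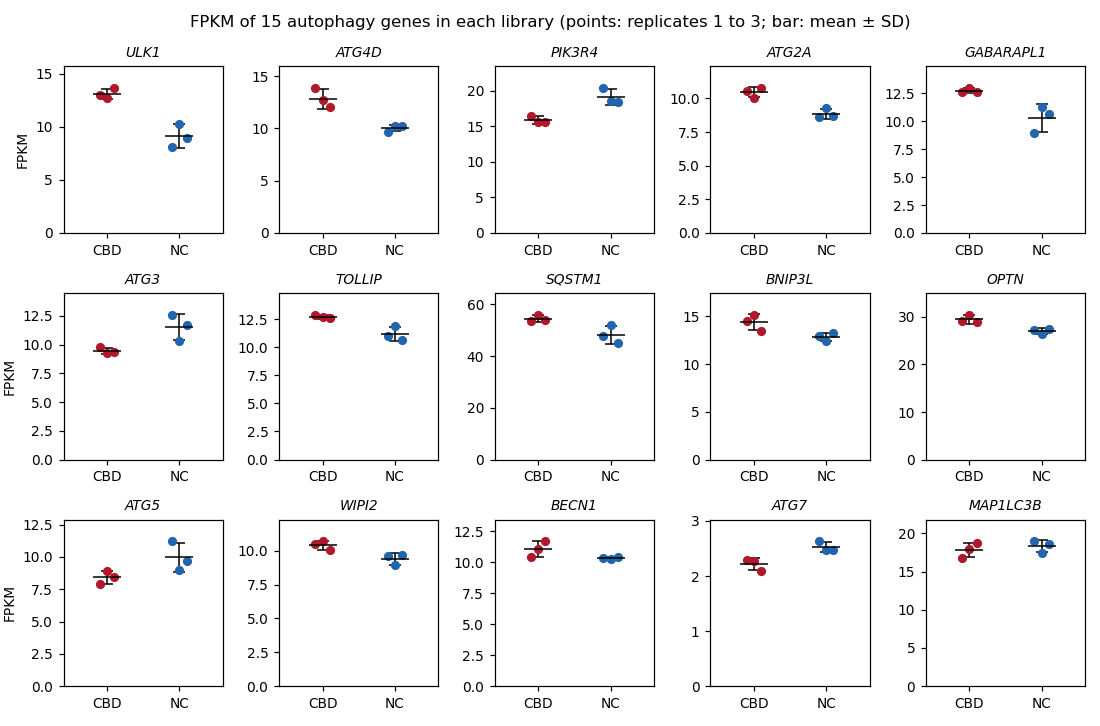
FPKM of 15 autophagy genes in each library (CBD left in red, NC right in blue; points are replicates 1 to 3 from left to right, bars the mean ± SD, axes start at 0). ULK1 stands at 12.7 to 13.6 FPKM in CBD and 8.11 to 10.3 FPKM in NC libraries, while the groups overlap for MAP1LC3B.

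The class III PI3-kinase complex makes the lipid PI3P that marks the forming membrane. Its regulatory subunit gene PIK3R4 (VPS15) had 16.5, 15.6 and 15.6 FPKM in CBD and 20.4, 18.6 and 18.5 FPKM in vehicle replicates 1 to 3. Every CBD value lay below every vehicle value, and the log2 difference was -0.25 ± 0.06 (SE; limma adjusted p = 0.0636, range over alternatives 0.0257 to 0.212). It was -0.17 once the GC trend was removed, and without vehicle replicate 1 it was -0.21. The catalytic subunit gene PIK3C3 (VPS34) had 3.12 ± 0.225 FPKM in CBD and 3.50 ± 0.317 FPKM in vehicle libraries, with overlapping groups (log2 difference -0.13; limma adjusted p = 0.287). For PIK3C3 the difference was 0.01 with the GC trend removed and -0.07 without vehicle replicate 1.

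BECN1, the scaffold of the complex and a standard marker of the pathway, had 10.4, 11.0 and 11.7 FPKM in CBD and 10.3, 10.2 and 10.4 FPKM in vehicle replicates 1 to 3. The groups did not overlap, but CBD replicate 1 and vehicle replicate 3 were close (log2 difference 0.09, 95% interval -0.04 to 0.21; limma adjusted p = 0.281). Of the exon bases of BECN1 17.1% are shared with a gene on the opposite strand, CNTD1. ATG14, which directs the complex to autophagy, had 5.83 ± 0.184 FPKM in CBD and 5.53 ± 0.264 FPKM in vehicle libraries. UVRAG, its counterpart on endosomes, had 5.41 ± 0.351 FPKM in CBD and 5.69 ± 0.294 FPKM in vehicle libraries. AMBRA1, a regulator of BECN1, had 5.50 ± 0.0587 FPKM in CBD and 5.32 ± 0.199 FPKM in vehicle libraries. These 3 overlapped between groups, and of the 6 genes of the complex 3 lay above 0 and 3 below.

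Among the genes that supply lipid to the growing membrane, ATG2A, which encodes a lipid transfer protein, had 10.6, 10.1 and 10.8 FPKM in CBD and 8.61, 9.26 and 8.69 FPKM in vehicle replicates 1 to 3. The groups were apart (log2 difference 0.22 ± 0.05, SE; limma adjusted p = 0.0674, range over alternatives 0.0317 to 0.905). GC content of the ATG2A transcripts is 63.8%, and the difference was 0.01 after the GC trend was taken out. The paralogue ATG2B, with a GC content of 43.6%, was lower in level, at 2.05 ± 0.101 FPKM in CBD and 2.25 ± 0.288 FPKM in vehicle libraries (limma adjusted p = 0.481). The ratio of ATG2A to ATG2B was higher in all 3 CBD libraries, at a mean log2 of 2.35 against 1.98 in vehicle libraries (exact permutation p = 0.1, adjusted 0.175).

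The PI3P-binding protein gene WIPI2 had 10.5, 10.7 and 10.1 FPKM in CBD and 9.63, 8.92 and 9.65 FPKM in vehicle replicates 1 to 3, without overlap (log2 difference 0.14, or 0.08 with the GC trend removed; limma adjusted p = 0.135). Its relative WIPI1 had 5.71 ± 0.313 FPKM in CBD and 5.89 ± 0.166 FPKM in vehicle libraries. ATG9A, which encodes a membrane protein of lipid-carrying vesicles, had 13.4, 12.2 and 12.8 FPKM in CBD and 14.0, 11.1 and 11.2 FPKM in vehicle replicates 1 to 3. Here vehicle replicate 1 was the highest of the 6, and without it the difference was 0.18 (0.08 with it). Reads of ATG9A are uncertain, as 38.8% of its exon bases are shared with an overlapping gene on the same strand.

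The conjugation genes mostly lay lower with CBD, 8 of 10 below 0 with a median of -0.12. Their median transcript GC content was 44.7%, against 48.9% over all tested genes, and their median difference with the GC trend removed was -0.049. Of all 12517 tested genes 6590 lay below 0. Among all genes with a GC content under 45%, as in ATG3, ATG4A, ATG4C, ATG5 and ATG12, only 13.7% lay above 0. From 45% to 55%, the range of ATG7, ATG10 and ATG16L1, 46.6% of all genes did. At 55% or more, the range of ATG4B and ATG4D, 87.6% did. ATG3, the E2-like enzyme that hands ATG8 proteins to lipid, had 9.76, 9.26 and 9.41 FPKM in CBD and 12.6, 10.3 and 11.7 FPKM in vehicle replicates 1 to 3. No values crossed between the groups (log2 difference -0.26 ± 0.07, SE; limma adjusted p = 0.0866, range over alternatives 0.0246 to 0.241). With the GC trend removed the difference of ATG3 was -0.15.

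ATG5, which joins ATG12 in the complex that directs lipidation, had 7.92, 8.88 and 8.45 FPKM in CBD and 11.2, 9.02 and 9.72 FPKM in vehicle replicates 1 to 3. CBD replicate 2 and vehicle replicate 2 were close, and vehicle replicate 1 was the highest (log2 difference -0.22; limma adjusted p = 0.130). Without vehicle replicate 1 the difference of ATG5 was -0.14, and with the GC trend removed it was -0.09. ATG7, the E1-like enzyme of both conjugation arms, had 2.30, 2.27 and 2.10 FPKM in CBD and 2.63, 2.48 and 2.47 FPKM in vehicle replicates 1 to 3. Its groups did not overlap either (log2 difference -0.13; limma adjusted p = 0.205), and 18.1% of its exon bases are shared with other genes, chiefly VGLL4 on the opposite strand.

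ATG16L1, the partner that anchors ATG5 and ATG12 at the membrane, had 4.23 ± 0.0909 FPKM in CBD and 4.58 ± 0.0254 FPKM in vehicle libraries, a small difference of -0.09 with no overlap (limma adjusted p = 0.222). ATG12 had 5.06 ± 0.469 FPKM in CBD and 5.68 ± 0.539 FPKM in vehicle libraries. ATG10, the E2-like enzyme for ATG12, was the lowest of the 38 tested members, at 1.44 ± 0.056 FPKM in CBD and 1.63 ± 0.181 FPKM in vehicle libraries. Both overlapped between groups.

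The ATG4 proteases trim ATG8 proteins before lipidation and release them afterwards, and their 4 genes lay on both sides of 0. ATG4D had 13.9, 12.7 and 12 FPKM in CBD and 9.70, 10.2 and 10.2 FPKM in vehicle replicates 1 to 3. Its groups were apart (log2 difference 0.32 ± 0.06, SE; limma adjusted p = 0.0584, range over alternatives 0.0252 to 0.489). ATG4B, the most active of the family, had 9.05 ± 0.155 FPKM in CBD and 8.49 ± 0.357 FPKM in vehicle libraries, with no overlap but replicates 2 nearly equal (limma adjusted p = 0.281). ATG4A had 4.92 ± 0.781 FPKM in CBD and 5.26 ± 0.235 FPKM in vehicle libraries, and ATG4C 4.63 ± 0.472 FPKM in CBD and 5.24 ± 0.234 FPKM in vehicle libraries, both with overlap. The ratio of ATG4D to ATG4C was above the vehicle range in every CBD library, at a mean log2 of 1.48 ± 0.245 in CBD against 0.94 ± 0.102 in vehicle libraries (exact permutation p = 0.1, adjusted 0.175).

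ATG4D and ATG4C lie at opposite ends of the GC range of the 38 tested genes, and their coding starts, given in the same form as for the ULK pair, also differ. ATG4D is on chromosome 19 (10543895 to 10553418, plus strand) and ATG4C on chromosome 1 (62784135 to 62865513, plus strand).
ATG4D: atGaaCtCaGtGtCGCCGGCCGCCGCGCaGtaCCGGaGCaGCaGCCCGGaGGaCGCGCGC
ATG4C: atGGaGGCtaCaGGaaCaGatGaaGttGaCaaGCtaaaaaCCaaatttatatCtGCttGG
In the 60 bases shown 44 are G or C in ATG4D and 23 in ATG4C, and over the annotated transcripts the GC content is 64.5% in ATG4D and 35.5% in ATG4C. With the GC trend removed the difference of ATG4D was 0.11 (0.32 as deposited) and that of ATG4C 0.01 (-0.15 as deposited). Of the exon bases of ATG4D 15.0% are shared with a gene on the opposite strand, KRI1.

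Of the 5 ATG8 family genes, MAP1LC3B, GABARAPL2 and GABARAPL1 were among the members with higher FPKM, and MAP1LC3A and GABARAP among those with the lowest. MAP1LC3B (LC3B), whose lipid-bound protein is the usual marker of autophagosomes, had 16.8, 17.9 and 18.7 FPKM in CBD and 19.0, 17.5 and 18.6 FPKM in vehicle replicates 1 to 3. The groups overlapped, with a log2 difference of -0.04 (95% interval -0.18 to 0.09; limma adjusted p = 0.636). GABARAPL2 likewise overlapped, at 17.6 ± 1.27 FPKM in CBD and 17.5 ± 0.962 FPKM in vehicle libraries. GABARAPL1 had 12.6, 13.0 and 12.6 FPKM in CBD and 8.92, 11.3 and 10.6 FPKM in vehicle replicates 1 to 3. Every CBD value of GABARAPL1 was above the vehicle values (log2 difference 0.29 ± 0.08, SE; limma adjusted p = 0.0852, range over alternatives 0.0339 to 0.238), and its difference was 0.28 with the GC trend removed and 0.20 without vehicle replicate 1.

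MAP1LC3A (LC3A) was lower in level and more variable, with 3.24, 3.70 and 4.90 FPKM in CBD and 2.41, 3.28 and 3.10 FPKM in vehicle replicates 1 to 3. CBD replicate 1 lay inside the vehicle range, and the difference of 0.32 had a 95% interval from -0.01 to 0.66 (limma adjusted p = 0.167). With the GC trend removed the MAP1LC3A difference was 0.12. GABARAP itself was listed at a low level, under the mean of 1 FPKM needed for the fit. It had 1.37, 0.40 and 1.03 FPKM in CBD and 0.599, 1.23 and 0.742 FPKM in vehicle replicates 1 to 3. These values rest on 74, 21 and 48 recovered fragments in CBD and 31, 61 and 33 in vehicle libraries, and GABARAP did not enter the fit (exact permutation p = 0.9). In the annotation 55.7% of its exon bases are shared with other genes, 30.5% with genes on its own strand. An overlapping gene, AC120057.2, was at 0 in every library. Whether fragments in shared exons were left uncounted was not tested, so the level of GABARAP is uncertain.

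Of 14 ratios formed between paralogues (ULK, ATG2, ATG4 and ATG8 families), 8 did not overlap between the groups. Among all tested genes taken singly, 18.7% had all CBD values above all vehicle values and 21.9% all below. No such share was worked out for ratios of other genes. The 14 ratios share genes, so they are not separate observations. In all 8 the ratio was higher with CBD for the gene placed first, which in all 8 has the higher GC content. The order was a choice, and most of the 14 ratios had the GC-richer gene first, so no conclusion is drawn from the shared direction. With 3 libraries a group none can pass a threshold of 0.05. The ratio of GABARAPL1 to MAP1LC3B was the case with the closest GC contents, 50.8% and 50.3%. Its mean log2 was -0.49 ± 0.0781 in CBD and -0.84 ± 0.230 in vehicle libraries (exact permutation p = 0.1, adjusted 0.175).

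The receptors tie cargo to ATG8 proteins, and SQSTM1 (p62), which carries ubiquitinated cargo and is itself degraded with it, had the highest FPKM of the 39 genes. It had 53.4, 56.0 and 53.8 FPKM in CBD and 47.7, 51.9 and 44.9 FPKM in vehicle replicates 1 to 3. All CBD values were above the vehicle values, with a log2 difference of 0.17 ± 0.06 (SE; 95% interval 0.03 to 0.32; limma adjusted p = 0.116, range over alternatives 0.0359 to 0.645). With the GC trend removed the SQSTM1 difference was 0.05. Of its exon bases 22.0% are shared with genes on the opposite strand, chiefly MRNIP.

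OPTN (optineurin), a receptor for ubiquitinated mitochondria and bacteria, had 29.1, 30.5 and 28.9 FPKM in CBD and 27.1, 26.4 and 27.5 FPKM in vehicle replicates 1 to 3. Its groups did not overlap (log2 difference 0.12; limma adjusted p = 0.130), and the difference was 0.17 with the GC trend removed. BNIP3L (NIX), a mitochondrial receptor induced in hypoxia, had 14.5, 15.2 and 13.5 FPKM in CBD and 12.9, 12.4 and 13.2 FPKM in vehicle replicates 1 to 3. Those values were also apart (log2 difference 0.15; limma adjusted p = 0.127), and the difference was 0.25 with the GC trend removed. TOLLIP, a ubiquitin-binding adaptor, had 12.9, 12.7 and 12.6 FPKM in CBD and 11.0, 11.9 and 10.7 FPKM in vehicle replicates 1 to 3, again apart (log2 difference 0.17; limma adjusted p = 0.0953), and its difference was 0.03 with the trend removed.

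The other 4 receptors lay below 0. NBR1, a relative of SQSTM1 in cargo binding, had 26.4 ± 0.545 FPKM in CBD and 27.6 ± 0.413 FPKM in vehicle libraries, without overlap but with a log2 difference of -0.07 (limma adjusted p = 0.319). TAX1BP1 had 10.9, 10.1 and 9.98 FPKM in CBD and 13.9, 10.4 and 11.9 FPKM in vehicle replicates 1 to 3, and the difference was -0.20 with all libraries, -0.10 without vehicle replicate 1 and -0.08 with the GC trend removed. CALCOCO2 (NDP52), a receptor for bacteria, had 18.2 ± 0.443 FPKM in CBD and 18.6 ± 0.876 FPKM in vehicle libraries. FUNDC1, a receptor of the outer mitochondrial membrane, had 15.2 ± 0.677 FPKM in CBD and 16.5 ± 1.28 FPKM in vehicle libraries. TAX1BP1, CALCOCO2 and FUNDC1 overlapped between the groups.

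The sign and size of the differences followed transcript GC content. Across the 38 members, which share the same 6 libraries, Spearman's rho between GC content and difference was 0.80, against 0.67 over 12510 genes. It was 0.73 without vehicle replicate 1. All 10 members with a GC content of at least 55% lay above 0 (median 0.20), as did 87.6% of all genes in that range (median 0.17). Of the 14 members under 45% only 3 lay above 0 (ATG14, GABARAPL2 and BNIP3L; median -0.12), against 13.7% of all such genes (median -0.14). With the trend removed, rho was 0.25 in the members and 0.13 over all genes, so a weaker relation remained. In that setting 28 of 38 members kept their direction. The other 10 (ATG13, RB1CC1, PIK3C3, AMBRA1, ATG9A, ATG4A, ATG4B, ATG4C, CALCOCO2 and FUNDC1) changed sign and then lay between -0.04 and 0.04. An unadjusted limma p under 0.05 was found with the trend removed for 7 members as higher (18.4%) and 2 as lower (5.26%). Over all genes the same was found for 8.41% and 10.3%. The 7 were ULK1, ULK2, BECN1, ATG14, GABARAPL1, OPTN and BNIP3L, and the 2 were PIK3R4 and ATG3. After adjustment 0 of the 38 passed, and of all 12510 genes only 4 passed as higher and 3 as lower.

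**Figure D3:**
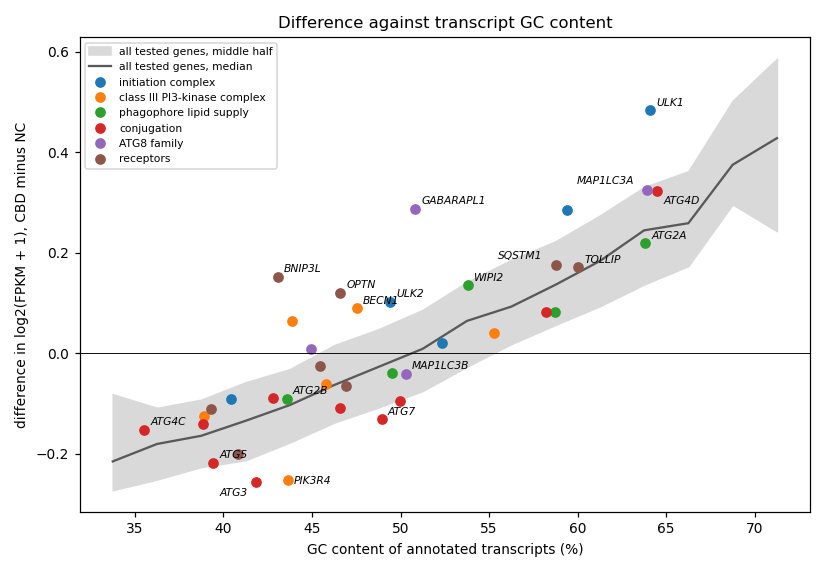
Difference in log2(FPKM + 1), CBD minus NC, against the GC content of annotated transcripts for the 38 tested genes, coloured by role; the line is the median and the grey band the interquartile range of all tested genes in GC steps. Inside the band lie 25 of the 38, with 9 above it (among them ULK1, GABARAPL1 and BNIP3L) and 4 below it (PIK3R4, ATG3, ATG7 and ATG16L1).

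By library, vehicle replicate 1 gave the highest or lowest of the 6 values in 24 of the 38 members, 16 times the highest and 8 times the lowest. Vehicle replicate 2 did so in 6 and vehicle replicate 3 in 8, against 14, 11 and 13 in CBD replicates 1 to 3. The deviation of members from their 6-library mean had a Spearman rho with GC content of -0.80 in vehicle replicate 1, -0.69 in vehicle replicate 3 and -0.032 in vehicle replicate 2, while the CBD libraries had 0.56 to 0.67. Vehicle replicate 2 thus lay between the other vehicle libraries and CBD. Without vehicle replicate 1 each of the 38 members kept its direction.

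**Figure D4:**
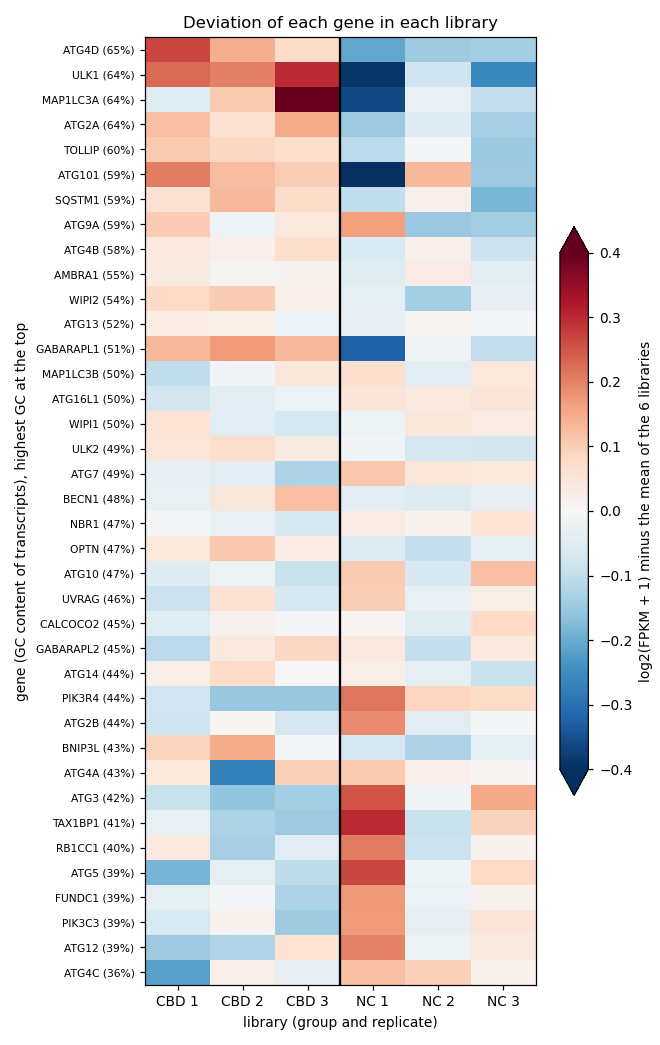
Heat map of log2(FPKM + 1) minus the mean of the 6 libraries for the 38 tested genes (rows, ordered by transcript GC content, highest at the top) in 3 CBD (left) and 3 NC libraries (right); red is above and blue below the mean. NC replicate 1 is mostly blue among GC-rich genes and red among GC-poor genes, and the NC replicate 2 column is the palest of the NC libraries.

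A wider list of 67 autophagy genes outside the 39 held nutrient sensors, transcription factors, fusion factors and further receptors, and 58 of them were tested. Like the members, 0 passed by limma, with 7 higher (12.1%, against 15.4% of all genes) and 5 lower (8.62%, against 16.0%) at an unadjusted p under 0.05. In 15 of the 58 all 3 CBD values lay above all 3 vehicle values (25.9%, against 18.7% of all genes). All lay below in 11 (19.0%, against 21.9%), so by this measure the wider list leaned the same way as the members. By limma-voom 3 were called higher (5.17%, against 7.26%) and 0 lower (6.69% of all genes). Their median difference was 0.021. PINK1, the kinase that flags damaged mitochondria, had 4.82, 5.38 and 4.79 FPKM in CBD and 3.20, 4.28 and 3.14 FPKM in vehicle replicates 1 to 3 (log2 difference 0.41; limma adjusted p = 0.0738). The groups of PINK1 were apart, and the difference was 0.34 with the GC trend removed. FKBP8, a mitochondrial receptor, had 114 ± 1.84 FPKM in CBD and 90.8 ± 10.9 FPKM in vehicle libraries (log2 difference 0.33, or 0.11 with the GC trend removed; limma adjusted p = 0.0757).

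TFEB, the transcription factor known as a master regulator of lysosome and autophagy genes, had 3.44, 3.46 and 3.33 FPKM in CBD and 2.03, 3.02 and 2.54 FPKM in vehicle replicates 1 to 3. The CBD values were close together and above all vehicle values (log2 difference 0.33; limma adjusted p = 0.0975), with a difference of 0.15 after removal of the GC trend. Its relative TFE3 had 20.3 ± 0.337 FPKM in CBD and 18.5 ± 1.27 FPKM in vehicle libraries (log2 difference 0.13, or -0.0015 with the GC trend removed; limma adjusted p = 0.186). MTOR, the kinase that holds autophagy in check, had 10.4 ± 0.234 FPKM in CBD and 10.6 ± 0.347 FPKM in vehicle libraries. BNIP3, the paralogue of BNIP3L, had 8.03 ± 0.304 FPKM in CBD and 8.18 ± 0.218 FPKM in vehicle libraries, both of these with overlapping groups. SEC62, a receptor of the endoplasmic reticulum, had a difference of -0.18, or -0.04 with the GC trend removed (limma adjusted p = 0.102). SH3GLB1, a membrane-bending partner of the BECN1 complex, had -0.16, or -0.03 with the trend removed (limma adjusted p = 0.110). PLEKHM1, a fusion adaptor, had 0.17, or 0.05 with the trend removed (limma adjusted p = 0.116).

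TFEB binds DNA motifs built on the letters CACGTG, which read the same on both strands. In RefSeq promoter windows of 300 bases (GRCh38.p14; 250 before to 50 after the start), available for 34 of the 39 members in 43 windows, these letters occurred in the windows of ATG3 and ATG14 only. That is 4.65% of the members' windows, against 7.26% of 35116 promoter windows in all. In the windows of the wider list the share was 13.3%, or 10 of 75. The 80 bases around the starts of both genes are shown, since they hold the only matches; capitals mark CACGTG. They lie at chr3:112561943-112562022 for ATG3 and chr14:55411811-55411890 for ATG14, both on the minus strand.
ATG3: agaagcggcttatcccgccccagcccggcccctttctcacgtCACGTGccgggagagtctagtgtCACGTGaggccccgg
ATG14: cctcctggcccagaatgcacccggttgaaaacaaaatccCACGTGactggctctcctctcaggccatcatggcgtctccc
ATG3, with 2 matches, had a difference of -0.26, and ATG14, with 1, had 0.06. With the GC trend removed these were -0.15 and 0.15.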

How the data were processed

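The authors deposited 1 table of FPKM values per gene and library, with no pooling, per the file headers. Reads had been aligned with HISAT2 (2.0.5) and counted with featureCounts (1.5.0-p3), per the submitters' processing notes. Build, annotation, strand setting and filters: not given in the sources used here. The FPKM unit is scaled to library total and gene length, and is not corrected for GC content. All 58735 gene identifiers matched GENCODE 29 (GRCh38). FPKM times the exon-union length of that release gave whole fragments for 100% of values above 0 (tolerance 0.01 of a read), so depth was recovered. A floor of 3 reads is 0.126 to 0.153 FPKM for a gene of 1 kb, for counting error only.

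Genes with a mean of at least 1 FPKM were fitted as log2(FPKM + 1) with limma 3.58.1 (R 4.3.3; group only, intensity trend, two-sided, Benjamini-Hochberg over 12517 genes, threshold 0.05). The GC trend was a loess (span 0.3) per library, over 12510 genes with a GC content. Paralogue ratios and GABARAP had two-sided exact permutation tests. The fit was tested on simulated data. These held no GC trend and planted changes larger than that of any member, so they do not cover differences like those reported. Members and lists were chosen with earlier results of these data known. Shown per library were the 12 members with the smallest adjusted p, 6 common readouts of the pathway, and others singled out after their values were seen; of the wider list, 6 by p and 4 by name. Of the members 14 share over 5% of exon bases with another gene; without a strand setting such reads cannot be told apart. Python 3.11.15, pandas 2.3.3 and scipy 1.17.1 were used.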

Additional observations from a re-analysis of the deposited data

How the results depend on the processing

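Over all genes, the numbers called higher and lower were 32 and 12 as reported, 0 and 0 without a filter on low values, 427 and 305 at a mean of at least 5 FPKM, 909 and 837 with limma-voom, and 4 and 3 with the GC trend removed; leaving out 1 library each gave 0 to 1267 and 0 to 1084. The members' 0 and 0 became 3 and 1 at 5 FPKM (30 members tested), 4 and 2 with limma-voom, and 0 to 7 and 0 to 3 with 1 library left out. For the wider list the 0 and 0 became 1 and 0 at 5 FPKM, 3 and 0 with limma-voom, and 0 to 4 and 0 to 3 with 1 library left out. The members' median of -0.0087 was 0.030 at 5 FPKM. The wider list's median of 0.021 was 0.0092 at 5 FPKM, 0.029 with median-ratio scaling, -0.0067 with the GC trend removed (with or without the replicate block), and 0.0083 to 0.034 with 1 library left out. TFE3, 0.13 as reported, was -0.0015 with the GC trend removed (with or without the replicate block). BNIP3, -0.02 as reported, was 0.0043 without CBD replicate 1 and otherwise as low as -0.042 with 1 library left out. The cause was not tested. With the replicate block 0 and 0 genes were called over all genes and 0 among the members, also with the GC trend removed. Correlations of deviations between same-numbered libraries were -0.0027, 0.052 and 0.024, not every library correlated best with its own number, and the numbers were not taken as pairs.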
